A study of Mus musculus with 96 samples.

Results

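The genes described are the cadherins and solitary protocadherins, taken as every protein-coding mouse gene whose symbol is Cdh or Pcdh followed by digits only. The rule gave 34 genes, 23 cadherins and 11 protocadherins, of 21899 protein-coding genes and 55335 gene identifiers in the count table. The clustered protocadherins (Pcdha, Pcdhb and Pcdhg) fall outside it. RNA was read from nuclei of adult mouse visual cortex in 96 libraries, 48 of VIP nuclei, which come from interneurons that make vasoactive intestinal peptide, and 48 labelled total nuclei. All mice were VIP flp/wt, so that the recombinase Flp is made in VIP cells, and were homozygous for an Igf1 enhancer allele that Cre can delete, Igf1-E1 fl/fl (line E1), Igf1-E23 fl/fl (line E23) or Igf1-E123 fl/fl (line E123). At an age of 55 to 60 days they received either AAV-Syn1-fDIO-mScarlet-KASH-2a-Cre or AAV-Syn1-fDIO-mScarlet-KASH-2a-dCre. Both viruses need Flp and use the neuronal Syn1 promoter, and dCre, given to every control group, is an inactive form of Cre. Dark housing began 3 days later and lasted 10 to 12 days, and tissue was taken in the dark or after 1 h of light. Each fraction had, in line E1, 5 light and 3 dark dCre libraries and 4 light and 5 dark Cre libraries. Line E23 had 4 libraries in each of its groups, and line E123 had 4 in each but 3 for dark Cre. Every group held libraries of both sexes. Each library came from 50 to 100 nuclei. The labels number the libraries as biological replicates (BioRep) without stating that they are separate animals, so p-values measure the spread between these libraries.

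Cadherins are membrane proteins that join neighbouring cells through calcium-dependent contacts between their outer domains. Classical cadherins bind catenins inside the cell, and their 2 types, I and II, bind preferentially to cadherins of the same type, which sorts cells and matches synaptic partners during cortical development. Solitary protocadherins of the delta-1 and delta-2 groups have longer or shorter outer parts, adhere weakly, and signal through partners such as the WAVE complex that controls actin. Interneuron classes are known to differ in which of these genes they use.

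Promoters of 22 of the 34 genes were present in the RefSeq promoter set for build GRCm38.p6, each running from 250 bases before the start to 50 bases after it. The 5 shown come from 2 rows of members along a chromosome that each hold genes higher and genes lower in VIP than in total nuclei. Pcdh8 (chr14:79771263-79771562, minus strand), Pcdh20 (chr14:88471347-88471646, minus strand) and Pcdh9 (chr14:93890630-93890929, minus strand) lie along chromosome 14. Cdh6 (chr15:13173626-13173925, minus strand) and Cdh18 (chr15:23036213-23036512, plus strand) are the ends of a row of 5 type II cadherins on chromosome 15. Capitals mark the motifs searched.
Pcdh8: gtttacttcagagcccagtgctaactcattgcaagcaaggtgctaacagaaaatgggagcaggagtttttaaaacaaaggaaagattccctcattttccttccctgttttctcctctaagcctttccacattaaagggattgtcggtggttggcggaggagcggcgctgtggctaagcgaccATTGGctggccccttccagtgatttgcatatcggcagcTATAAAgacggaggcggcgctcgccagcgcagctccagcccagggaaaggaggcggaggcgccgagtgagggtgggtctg
Pcdh20: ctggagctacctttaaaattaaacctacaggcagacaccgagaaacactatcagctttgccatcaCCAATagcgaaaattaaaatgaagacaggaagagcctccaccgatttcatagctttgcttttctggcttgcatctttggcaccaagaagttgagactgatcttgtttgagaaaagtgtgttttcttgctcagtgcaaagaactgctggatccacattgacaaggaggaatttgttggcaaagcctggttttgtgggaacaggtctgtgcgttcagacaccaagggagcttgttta
Pcdh9: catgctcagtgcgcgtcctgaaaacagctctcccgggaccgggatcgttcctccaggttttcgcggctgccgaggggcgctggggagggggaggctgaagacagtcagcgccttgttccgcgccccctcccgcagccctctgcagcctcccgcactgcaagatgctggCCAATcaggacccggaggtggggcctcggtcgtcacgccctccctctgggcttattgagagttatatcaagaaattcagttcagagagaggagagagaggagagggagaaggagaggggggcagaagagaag
Cdh6: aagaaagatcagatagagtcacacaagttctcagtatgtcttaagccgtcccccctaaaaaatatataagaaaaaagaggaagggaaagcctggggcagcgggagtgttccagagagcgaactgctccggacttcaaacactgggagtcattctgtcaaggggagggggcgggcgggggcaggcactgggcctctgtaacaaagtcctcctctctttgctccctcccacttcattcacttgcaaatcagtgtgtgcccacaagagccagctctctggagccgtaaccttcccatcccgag
Cdh18: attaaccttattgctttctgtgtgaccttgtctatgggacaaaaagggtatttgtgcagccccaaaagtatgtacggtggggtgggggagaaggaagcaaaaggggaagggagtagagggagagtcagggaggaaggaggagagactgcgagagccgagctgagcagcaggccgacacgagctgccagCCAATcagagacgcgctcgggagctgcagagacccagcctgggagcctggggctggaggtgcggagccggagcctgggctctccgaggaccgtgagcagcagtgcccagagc
Each sequence reads 5′ to 3′ on the gene's own strand.

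Of these 5 promoters, that of Pcdh8 alone held the TATA box letters TATAAA, 30 bases before the start, and it also held CCAAT on the opposite strand (read as ATTGG) 68 bases before the start. CCAAT lay 185 bases before the start in Pcdh20, 82 bases in Pcdh9 and 62 bases in Cdh18, and no searched motif was found in Cdh6. Searched on both strands, CCAAT occurred in 17 of the 25 promoters of these 22 genes and in 37.4% of all 32851 promoters of this length. TATAAA occurred in 2 of the 25 (Pcdh8 and Pcdh15) and in 13.6% of all promoters, the E-box letters CAGCTG in 3 and in 16.3%, and the homeodomain core TAATTA in 1 (Cdh7) and in 5.29%. The cAMP response element TGACGTCA was in none of the 25 and in 1.79% of all, and the AP-1 letters TGANTCA in none and in 7.81%. The RefSeq start of Cdh18 lies inside the gene as GENCODE gives it, which begins at position 22549022 of chromosome 15. Such matches are letters only, and binding was not measured here.

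Library totals were 1559883 to 9122515 counts in VIP nuclei and 1881731 to 8972526 in total nuclei, with a median of 19124 and 20742 genes detected. Vip, the peptide gene that defines the sorted cells, was at 5359 ± 3290 CPM (counts per 1000000 of the TMM-scaled library size) in VIP nuclei and 44.6 ± 49.2 CPM in total nuclei (mean ± SD, n = 48 each). Of the marker lists, all 13 VIP and all 10 GABAergic genes were higher in VIP nuclei, and all 16 excitatory, 14 oligodendrocyte lineage and 11 microglial genes were lower. Of 10 astrocyte genes 1 was higher and 3 lower, of 10 endothelial and mural genes 2 and 1, of 10 Pvalb and Sst interneuron genes 2 and 6, and of 6 Lamp5 and Sncg genes 2 and 3. Igf1 had a lower group mean with Cre than with dCre in VIP nuclei of every line and light condition, for example 409 ± 49.4 against 655 ± 101 CPM in dark E1 (n = 5 and 3). Libraries also differed in a length index, the mean log2 CPM of the 20% of protein-coding genes with the longest spans (at least 78.4 kb) minus that of the 20% with the shortest (at most 8.6 kb), these 34 genes left out. VIP libraries of dark dCre replicates 1 and 2 of lines E1 and E123 stood apart, at 4.89 to 5.16 against 2.14 to 3.99 in the other 44. They also had the 4 lowest Vip levels of the 48, at 611 to 1283 CPM. All came from females, as did dark dCre replicate 4 of E123, while dark dCre replicate 3 of both lines was male.

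Of the 34 genes, 28 passed the filter on low counts in the fit of all libraries and 6 did not. Summed over the 34 genes, the level was 7191 ± 2220 CPM in VIP nuclei and 8304 ± 1910 CPM in total nuclei. Per kilobase of exon, Pcdh9 and Cdh12 were the most abundant members in both fractions. Pcdh9, a delta-1 protocadherin, averaged 237 ± 137 CPM per kb in VIP nuclei and 490 CPM per kb in total nuclei. Cdh12, a type II cadherin of brain, averaged 228 ± 80.6 and 224 CPM per kb, so that the VIP means of both genes were closer than their SDs. Next in VIP nuclei came Cdh20 at 74.9 ± 24.4, Pcdh7 at 50.4 ± 17.1, Cdh10 at 49.5 ± 14.9, Cdh8 at 48.1 ± 12.2 and Cdh9 at 46.6 ± 22.7 CPM per kb, of which the last 4 were closer to each other than their SDs. In total nuclei Cdh18 ranked 3rd at 73.7 CPM per kb, whereas in VIP nuclei it ranked 14th at 19.0. Type II cadherins took 47.8% ± 4.76 of the summed CPM in VIP nuclei and 36.8% ± 2.64 in total nuclei, and delta-1 protocadherins took 28.6% ± 5.37 and 46.9% ± 2.67 (SD over 48 libraries). These shares are on the CPM scale and add up to 100 over the members, so each depends on the others.

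VIP nuclei differed from total nuclei in 17 of the 28 genes that passed the filter, 9 higher and 8 lower (edgeR quasi-likelihood test, Benjamini-Hochberg adjusted p under 0.05). Over all 22926 genes tested, 35.5% passed, 14.8% higher and 20.7% lower. The median log2 difference was -0.026 over the 28 genes and -0.111 over all genes. Scaled to total counts in place of TMM, the median of all genes moved to -0.237 and the split to 9 higher and 12 lower, Cdh2, Cdh11, Pcdh7 and Pcdh17 being added to the lower genes. The same 9 genes were higher under every alternative tried. In such pools of nuclei, fewer expressing cells and less RNA per cell cannot be told apart.

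**Figure D1:**
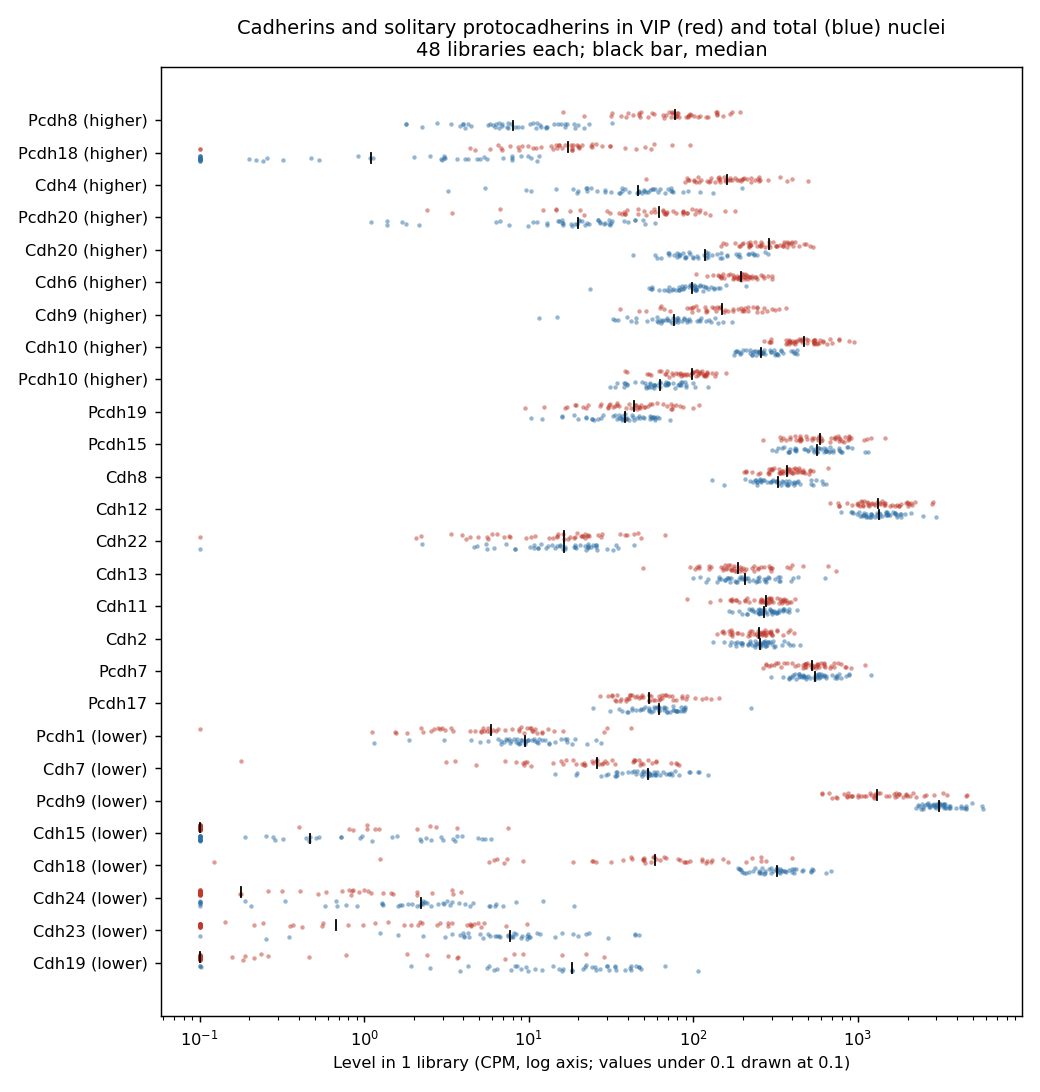
Level of each tested member (CPM, log axis) in every VIP library (red) and total library (blue), ordered by the fitted difference, with black bars at the medians of 48 libraries. Pcdh8, Pcdh18 and Cdh4 head the genes that were higher in VIP nuclei, and Cdh19, Cdh23 and Cdh24 end the list. Cdh1 is not drawn.

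The widest gap in favour of VIP nuclei was that of Pcdh8, a delta-2 protocadherin also known as arcadlin, which takes N-cadherin off the synaptic membrane. VIP libraries ranged from 16.1 through a median of 77.8 to 192 CPM, and total libraries from 1.78 through 8.04 to 32.2 CPM. In 44 of the 48 VIP libraries Pcdh8 exceeded every total library, and in all 48 same-numbered pairs the VIP library was higher. The fitted log2 difference was 3.06 ± 0.155 (SE), an 8.31-fold higher level, with an adjusted p of 3.24e-31. Its lowest and highest group means in VIP nuclei were 35.9 CPM (E123 dCre dark) and 117 CPM (E23 dCre light).

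Pcdh18, another delta-2 protocadherin, ranged in VIP libraries from 0 through 17.3 to 94.9 CPM and in total libraries from 0 through 1.10 to 11.6 CPM. It had no count in 2 VIP and 15 total libraries. A limit of 3 counts, which covers counting error only, equals 0.329 to 1.92 per 1000000 raw counts over all VIP libraries. Over all total libraries it equals 0.334 to 1.59. Unlike the levels, these limits are not on TMM-scaled sizes, so the CPM that a library at 0 allows can differ from them. The log2 difference was 2.69 ± 0.393, and 33 VIP libraries lay above every total library. Pcdh10, a further delta-2 member that was higher, differed by 0.54 ± 0.085, with levels of 94.3 ± 26.4 and 64.2 ± 19.9 CPM. Its ranges overlapped, and 40 of 48 pairs were higher in the VIP library. Pcdh20, a solitary protocadherin outside both delta groups, ranged from 2.40 through 62.1 to 179 CPM in VIP nuclei and from 1.10 through 19.8 to 58.2 CPM in total nuclei. Its difference was 1.45 ± 0.209 on the log2 scale, and 45 of 48 pairs went the same way.

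Cdh4 (R-cadherin) was the only type I cadherin that was higher in VIP nuclei. It ranged from 51.8 through 160 to 497 CPM in VIP libraries and from 3.21 through 46.2 to 196 CPM in total libraries. The VIP library was the higher of all 48 pairs, and in 10 of 12 conditions every VIP library lay above every total library. The log2 difference was 1.93 ± 0.150 (3.82-fold, adjusted p = 3.69e-19). Cdh2 (N-cadherin), the other well expressed type I member, was at 247 ± 63.9 CPM in VIP nuclei and 257 ± 65.9 CPM in total nuclei. Its log2 difference of -0.06 ± 0.066 did not pass (adjusted p = 0.538).

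The type II cadherins that were higher in VIP nuclei were Cdh20, Cdh6, Cdh10 and Cdh9. Cdh20 had medians of 287 CPM in VIP and 117 CPM in total libraries, with ranges of 147 to 535 and 43.0 to 285 CPM, and a log2 difference of 1.20 ± 0.105. Cdh6, known first from kidney and used by subsets of neurons, had medians of 193 and 97.5 CPM, with ranges of 104 to 300.3 and 23.5 to 209.5 CPM. It differed by 1.05 ± 0.081, and 47 of 48 pairs were higher in the VIP library for both genes. Cdh10 was among the steadiest, with a range of 270.2 to 950.4 CPM in VIP and 175 to 427 CPM in total libraries. Its difference was 0.85 ± 0.072 (1.80-fold), and 48 of 48 pairs went the same way. Cdh9, a synaptic cadherin known from hippocampal mossy fibre contacts, ranged from 35.7 through 149 to 366 CPM in VIP libraries and from 11.5 through 76.4 to 172 CPM in total libraries. Its difference was 0.99 ± 0.136, and 42 of 48 pairs were higher.

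Of the 8 members that were lower in VIP nuclei, 5 averaged at most 8.15 CPM there. Cdh19, a type II cadherin of the glial lineage of nerve, averaged 2.26 ± 5.78 CPM in VIP and 22.8 ± 20.2 CPM in total nuclei. It had no count in 29 of 48 VIP libraries and reached 28.7 CPM there, against a median of 18.2 and a highest value of 107 CPM in total libraries. Its fitted log2 difference was -4.89 ± 0.552, and 45 of 48 pairs were lower in the VIP library. Cdh23, the tip-link cadherin of hair cells, averaged 1.82 ± 2.26 and 10.6 ± 10.9 CPM and differed by -2.63 ± 0.394. The reads carry no strand, so those of overlapping genes cannot be told apart from the members. Protein-coding genes overlap Cdh23 (Vsir, Gm17455), Cdh24 (Gm17606), Cdh15 (Gm20388) and Cdh12 (Acot10). Genes of other kinds overlap Pcdh8, Cdh4, Cdh9, Pcdh10, Pcdh1 and Pcdh17 (1 each), Cdh19 (2), Cdh20 and Cdh18 (4 each), Pcdh9 (6), Pcdh15 (7) and Pcdh7 (15). Cdh24 averaged 0.674 ± 0.996 and 2.94 ± 3.40 CPM and differed by -2.57 ± 0.467. Cdh15 (M-cadherin, known from muscle) averaged 0.520 ± 1.31 and 1.30 ± 1.71 CPM and differed by -1.64 ± 0.558 (adjusted p = 0.0143). That call was lost with DESeq2 (adjusted p = 0.113), and without all libraries numbered 1, all numbered 2 or the dark dCre replicates 1 and 2 of E1 and E123 the difference could not be estimated. Pcdh1, a delta-1 protocadherin, averaged 8.15 ± 7.72 and 10.7 ± 5.51 CPM and differed by -0.62 ± 0.198 (adjusted p = 0.00917). Without the libraries numbered 4 its call was lost (-0.53, adjusted p = 0.0641).

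The other lower members, Cdh18, Pcdh9 and Cdh7, had higher levels in VIP nuclei than these. Cdh18, a type II cadherin of brain, ranged from 0.123 through 58.7 to 399 CPM in VIP libraries and from 188 through 322 to 682 CPM in total libraries. In 42 VIP libraries it lay below every total library, and the log2 difference was -2.31 ± 0.220 (4.95-fold lower, adjusted p = 8.96e-15). Pcdh9 ranged from 600.4 through 1302 to 4607 CPM in VIP libraries and from 2266 through 3113 to 5772 CPM in total libraries. It was lower in the VIP library of all 48 pairs, by -1.12 ± 0.090 on the log2 scale. Cdh7, a type II cadherin, had medians of 25.8 and 52.9 CPM and differed by -0.95 ± 0.170, with 40 of 48 pairs lower. Some markers of other cells were also lower in VIP nuclei. Summed excitatory markers were at 1060 ± 448 CPM in VIP and 2248 ± 212 CPM in total nuclei. The oligodendrocyte lineage markers summed to 403 ± 444 and 1654 ± 1040 CPM, with 92.7 to 2199 CPM in single VIP libraries. Microglial markers summed to 157 ± 44.8 and 380 ± 248 CPM. Astrocyte markers, at 698 ± 398 and 714 ± 153 CPM, were closer than their SDs. The part of these other cells in the lower members was not tested.

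The other 11 tested members did not pass. They include Cdh12, Cdh8, Cdh11 and Cdh22 of type II, the GPI-anchored Cdh13, Pcdh7 of delta-1, Pcdh17 and Pcdh19 of delta-2, and Pcdh15, the tip-link partner of Cdh23. Apart from Cdh1, seen in 2 VIP and 6 total libraries and too rare to estimate, their log2 differences lay between -0.14 (Pcdh17) and 0.23 (Pcdh19). Some of these estimates are narrow, such as 0.01 ± 0.078 for Cdh12 and -0.10 ± 0.080 for Pcdh7. The 6 members that failed the filter were Cdh3 (P-cadherin), Cdh5 (the VE-cadherin of endothelium), Cdh16 (kidney), Cdh17 (intestine), Cdh26 and Pcdh12 (endothelium). Their means were at most 0.247 CPM in VIP and 0.108 CPM in total nuclei. Cdh5 had counts in 5 VIP and 2 total libraries, and the endothelial and mural markers summed to a median of 24.6 CPM in VIP and 18.5 CPM in total nuclei.

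Within VIP nuclei the level of each of these genes also varied over the 12 groups of line, virus and light. Group means ran from 7.02 to 58.9 CPM for Pcdh18 (SD within groups 14.6 CPM) and from 17.1 to 130 CPM for Pcdh20 (27.7 CPM). For Cdh4 they ran from 121 to 367 CPM (66.6 CPM). They ran from 61.1 to 267 CPM for Cdh9, where the SD within groups was 67.4 CPM. Cdh6 and Cdh20 varied less, from 173 to 224 CPM and from 223 to 376 CPM, with SDs within groups of 46.2 and 93.0 CPM, so that the Cdh6 means differed by about the spread between replicates. Cdh10 ran from 375 to 699 CPM with an SD within groups of 143 CPM. Among the lower genes, group means ran from 31.2 (E1 Cre light) to 249 CPM (E123 dCre light) for Cdh18 (SD within groups 62.3 CPM). They ran from 991 to 3250 CPM for Pcdh9 (720 CPM) and from 11.0 to 70.3 CPM for Cdh7 (17.3 CPM). Those of Cdh19 ran from 0 to 7.28 CPM, those of Cdh23 from 0.303 to 3.58 CPM and those of Pcdh1 from 1.57 to 21.4 CPM. The highest means of Cdh4, Cdh9, Cdh10 and Pcdh9 were in dark dCre E1, and those of Cdh6, Cdh20 and Cdh7 in dark dCre E123. The lowest of Pcdh18 and Pcdh20 were in dark dCre E123, and that of Cdh23 in dark dCre E1. Both groups hold libraries of high length index, whose part in these ranges was not tested. Neither extreme of Cdh18, Cdh19 or Pcdh1 fell in these groups. All these extremes were picked after the fact from 12 means and were given no test of their own.

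**Figure D2:**
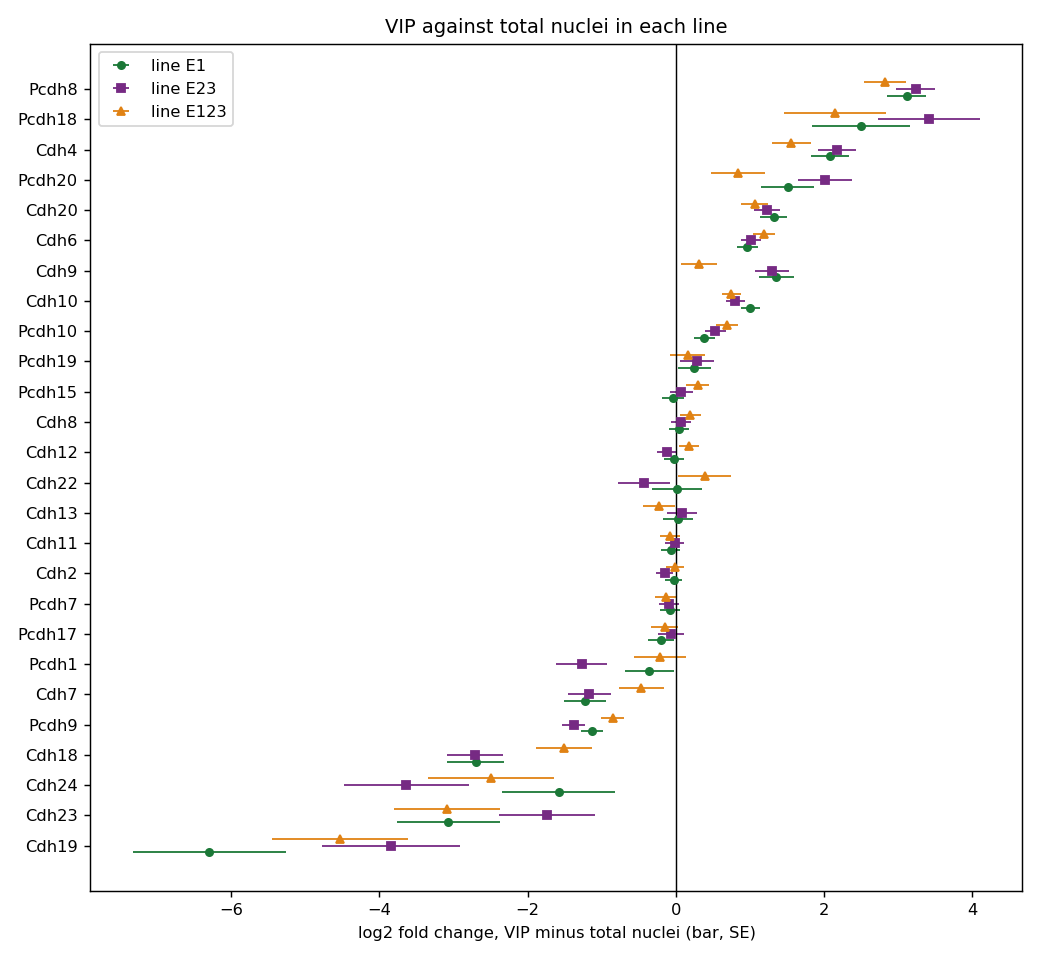
Fitted log2 difference between VIP and total nuclei for each tested member in lines E1, E23 and E123, with SE bars. Cdh1 and Cdh15 are not drawn. Pcdh8 lies between 2.82 and 3.23 in the 3 lines, and Cdh18 between -2.71 and -1.51.

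The fitted differences kept their directions across the 3 lines for every member called in the pooled comparison. That of Cdh15 rests in part on groups with no count in VIP nuclei, and its VIP mean was the higher in 3 of 12 conditions. Taken line by line, 9 members were higher and 5 lower in E1, where 27.1% of all genes passed (10.6% higher, 16.5% lower). In E23 they were 9 and 7, of 23.3% over all genes (9.26% and 14%), and in E123 7 and 5, of 14.8% (7.07% and 7.69%). Pcdh8, Pcdh18, Cdh4, Cdh20, Cdh6, Cdh10 and Pcdh10 passed as higher in each line, and Cdh19, Cdh23, Cdh18 and Pcdh9 passed as lower in each. The log2 difference of Cdh9 was 1.35 in E1 and 1.30 in E23 but 0.31 in line E123, where it did not pass. The differences between lines were tested themselves, and no member passed in E1 against E23, E1 against E123 or E23 against E123 (0.00872%, 0.441% and 0.951% of all genes passed). At an unadjusted p under 0.05 there were 1, 2 and 5 members. The nearest were Cdh9 in E1 against E123 (1.04 ± 0.333, adjusted p = 0.160) and in E23 against E123 (0.98 ± 0.334, adjusted p = 0.167). In E1 against E23 the smallest p was that of Cdh24 (adjusted p = 0.753), and the smallest 3 of each pair also held Pcdh1, Cdh23, Cdh18, Cdh7, Pcdh9 and Pcdh20. No member's VIP-to-total difference changed with light (0 of 28, with 3 at an unadjusted p under 0.05, and 0.0872% of all genes). The nearest were Pcdh10 (0.52 ± 0.169, adjusted p = 0.330), Cdh8 (0.42 ± 0.164, adjusted p = 0.532) and Pcdh17 (-0.48 ± 0.208, adjusted p = 0.656). DESeq2, added for these interaction tests after the data were seen, called 0 members in each pair of lines and 1 for light (Cdh19, with no count in most VIP libraries).

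**Figure D3:**
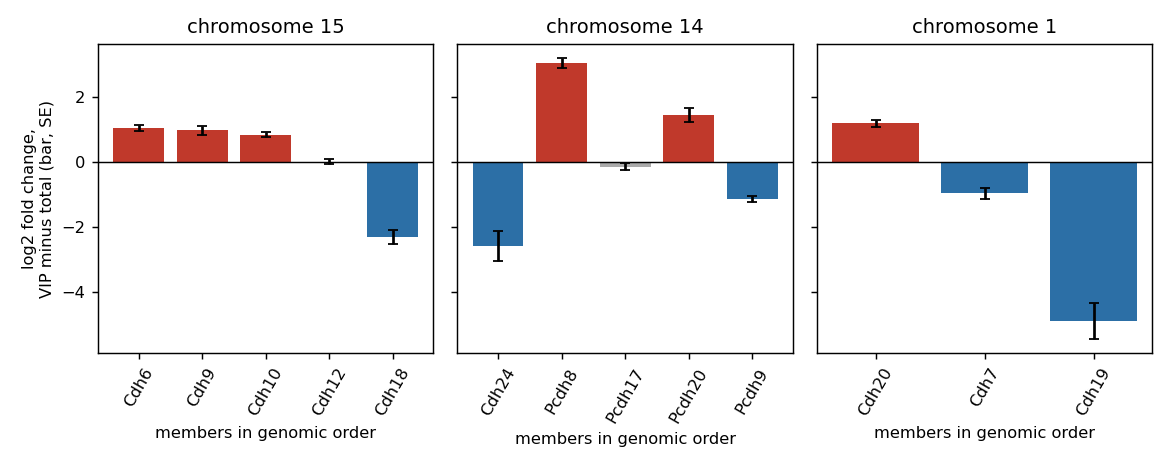
Fitted log2 difference between VIP and total nuclei (bars, SE) of the tested members on chromosomes 1, 14 and 15, in genomic order. On chromosome 15 the values descend from 1.05 (Cdh6) to -2.31 (Cdh18).

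Some members that are neighbours in the genome were called in opposite directions, and others in the same direction. On chromosome 15, Cdh6, Cdh9, Cdh10, Cdh12 and Cdh18 follow one another with no protein-coding gene between neighbours. Their log2 differences were 1.05, 0.99, 0.85, 0.01 and -2.31 in that order, and the gap between Cdh12 and Cdh18 is 0.959 Mb. On chromosome 14, Pcdh8 and Pcdh20 were higher, Pcdh17 between them did not pass (-0.14), and Pcdh9, 4.54 Mb from Pcdh20 with no protein-coding gene between, was lower. The promoters printed above for Pcdh20 and Pcdh9 belong to this pair. On chromosome 1, Cdh20 was higher by 1.20, and Cdh7, 4.99 Mb away with 20 protein-coding genes between, was lower, at -0.95. Cdh19, 0.748 Mb from Cdh7 with no protein-coding gene between, was also lower, at -4.89. On chromosome 3, Pcdh10 and Pcdh18, 4.31 Mb apart, were both higher. Pcdh8 and Pcdh20 are short genes, spanning 4.5 and 6.7 kb, whereas Pcdh9, Cdh18 and Cdh12 span 877, 925 and 1140 kb. The 28 tested members had a median span of 149 kb against 25.4 kb for all 15731 protein-coding genes tested, and the 9 higher and 8 lower members had medians of 128 and 123.5 kb.

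Among 20 partner genes of cadherins and protocadherins (catenins, nectins, afadin and WAVE complex subunits), 6 were higher and 8 lower in VIP nuclei, with a median of -0.126 on the log2 scale. Over all genes 14.8% were higher and 20.7% lower, with a median of -0.111. Nectin3, an adhesion molecule beside cadherins at synapses, was higher by 1.14 ± 0.106, Afdn, which links nectins to actin, by 0.46 ± 0.070, and the catenins Ctnnd2 and Arvcf by 0.33 ± 0.068 and 0.58 ± 0.140. Wasf1 (the WAVE1 subunit) was at -0.83 ± 0.068, Ctnnd1 (p120 catenin) at -0.63 ± 0.091, Ctnna1 (alpha-E-catenin) at -0.59 ± 0.090 and Nckap1 at -0.32 ± 0.056, all lower. Of 26 other genes of the cadherin superfamily, 24 were tested, 8 were higher and 4 lower, with a median of -0.109. Ret, the GDNF receptor kinase with cadherin-like domains, was higher by 3.89 ± 0.436, Dchs2 by 1.99 ± 0.267, Fat4 by 1.15 ± 0.110 and the calsyntenin Clstn3 by 0.94 ± 0.086. Clstn1 (-0.52 ± 0.065), Fat3 (-0.55 ± 0.080), Pcdhgc5 (-0.54 ± 0.094) and the desmosomal Dsg2 (-1.42 ± 0.441) were lower.

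In VIP nuclei of dCre mice, 1 h of light after darkness lowered 1 of 27 tested members, Cdh4, and raised none, where 6.27% of all genes passed (3.97% higher, 2.3% lower). Cdh4 fell by 0.69 ± 0.197 on the log2 scale (adjusted p = 0.0266). In line E1 the 3 dark libraries had 497, 368 and 237 CPM, and the 5 light libraries 250, 94.1, 126, 144 and 154 CPM, so the groups overlapped in 1 light library. Line E1 alone gave -1.17 ± 0.341 (adjusted p = 0.0373), where 4.18% of all genes passed (2.68% higher, 1.5% lower). In line E123 the dark libraries had 338, 400, 251 and 167 CPM and the light libraries 222, 224, 212 and 104 CPM. In E23 they had 190, 179, 128 and 101 CPM in the dark and 124, 122, 144 and 93.1 CPM in the light, and neither line passed alone. By edgeR no member passed in E23 or E123 (3 and 0 at an unadjusted p under 0.05), where 0.0486% and 0.00972% of all genes passed. DESeq2 called 0 in E123 and 1 in E23, Cdh19, a gene at 0 in every dark dCre VIP library of that line. The dark dCre libraries 1 and 2 of E1 and E123 are those of high length index. Without them Cdh4 was at -0.36 (adjusted p = 0.689), and with the length index as a covariate at -0.07 (adjusted p = 0.996). The call was also lost without 1 dark dCre library, that of E1 replicate 1 (-0.61, adjusted p = 0.081), E123 replicate 2 (-0.64, 0.0555) or E23 replicate 1 (-0.65, 0.0536). With total counts in place of TMM it was at -0.54 (adjusted p = 0.057). In E1 alone it was lost without any 1 of 6 of the 8 dCre libraries, with adjusted p up to 0.271, and kept without light replicate 1 or dark replicate 3.

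The next members by p were Pcdh9 (-0.54 ± 0.212, adjusted p = 0.112) and Pcdh19 (-0.69 ± 0.273, adjusted p = 0.115), and in E1 alone Cdh13 (-1.44 ± 0.446, adjusted p = 0.0541) and Pcdh9 (-1.10 ± 0.369, adjusted p = 0.0740). Cdh13 in dark E1 was at 740.3, 655 and 95.7 CPM, so that the high mean came from replicates 1 and 2. The smallest p-values were those of Cdh19, Cdh7 and Cdh24 in E23 and of Cdh12, Cdh4 and Cdh9 in E123, with adjusted p of 0.462 to 0.781. Every marker list had a higher median in the light dCre VIP libraries, the sorted cells' own among them. On the log2 scale the GABAergic list was at 0.60 (6 of 10 genes called higher), the VIP list at 0.461 (4 of 13), the Pvalb and Sst list at 0.489 (3 higher and 1 lower of 10) and the excitatory list at 0.825 (2 of 16). The microglial list was at 1.89 (3 of 11), the oligodendrocyte lineage list at 1.38 (1 of 14) and the astrocyte list at 1.08 (3 of 10). The endothelial and mural (0.911) and the Lamp5 and Sncg list (0.957) had no gene called. Their part in the light change was not tested. With Cre no member passed (2 at an unadjusted p under 0.05, 0.35% of all genes; DESeq2 also called 0). The nearest were Cdh9 (-0.75 ± 0.222, adjusted p = 0.134), Pcdh19 (-0.59 ± 0.274, adjusted p = 0.489) and Cdh10 (-0.31 ± 0.158, adjusted p = 0.550). The light change did not differ between Cre and dCre for any member in edgeR (1 at an unadjusted p under 0.05, 0.00486% of all genes, and 0 by DESeq2). Cdh4 came nearest, at 0.88 ± 0.279 (adjusted p = 0.334), before Cdh24 and Pcdh8 (adjusted p of 0.634 and 0.684).

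With Cre, averaged over lines and light, Pcdh8 and Pcdh20 were higher and Pcdh9 lower in VIP nuclei than with dCre (3 of 27 tested). Of all genes 3.74% passed, 2.31% higher and 1.43% lower. Pcdh8 was higher by 0.61 ± 0.160 on the log2 scale (adjusted p = 0.0260) and Pcdh20 by 0.86 ± 0.233 (adjusted p = 0.0333), and Pcdh9 was lower, at -0.51 ± 0.151 (adjusted p = 0.0459). In line E123, Pcdh8 had 32.1, 21.6, 43.2 and 46.6 CPM in dark dCre libraries and 74.2, 66.2 and 72.9 CPM in dark Cre libraries. In the light it had 47.8, 39.1, 36.5 and 31.4 CPM with dCre and 52.7, 79.6, 68.0 and 78.3 CPM with Cre. The E123 groups did not overlap in either light condition. In E1 the dark dCre libraries had 74.1, 16.1 and 93.1 CPM and the dark Cre libraries 90.7, 75.8, 167, 151 and 82.2 CPM, and in the light all E1 values lay between 47.4 and 171 CPM. In E23 all values lay between 40.0 and 192 CPM, and the groups overlapped in both conditions.

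**Figure D4:**
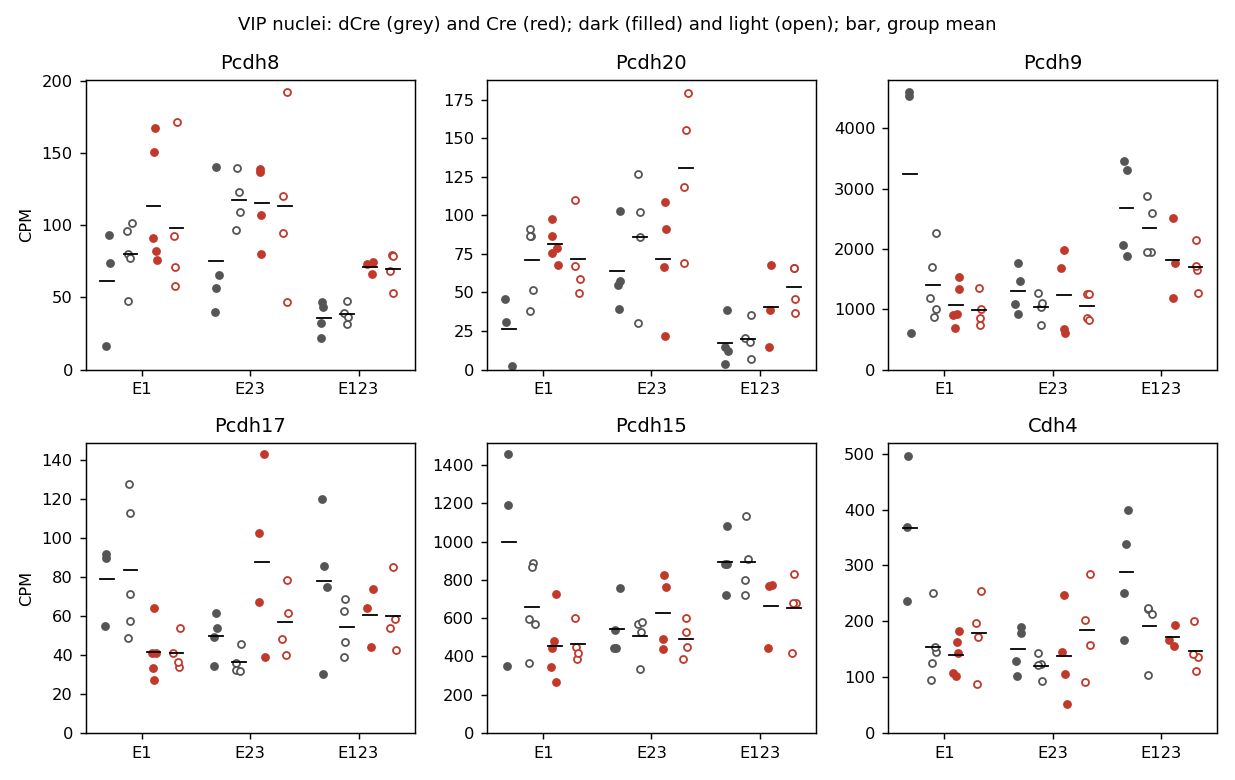
Level (CPM) of Pcdh8, Pcdh20, Pcdh9, Pcdh17, Pcdh15 and Cdh4 in each VIP library by line, virus (dCre grey, Cre red) and light (dark filled, light open), with bars at group means. In line E123 the Cre libraries of Pcdh8 lie between 52.7 and 79.6 CPM and the dCre libraries between 21.6 and 47.8 CPM.

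Pcdh20 in E123 had 12.3, 3.39, 14.5 and 38.4 CPM (dark dCre), 14.6, 38.3 and 68.1 CPM (dark Cre), 35.4, 20.5, 17.8 and 6.70 CPM (light dCre) and 36.8, 65.6, 45.8 and 65.8 CPM (light Cre). Only the light groups of that line did not overlap. In dark E1 it had 2.40, 31.0 and 46.0 CPM with dCre and 78.7, 75.7, 97.5, 67.9 and 86.6 CPM with Cre, without overlap. Pcdh9 in dark E1 had 4607, 4542 and 600.4 CPM with dCre and 1332, 1542, 917, 698 and 901 CPM with Cre, so that replicates 1 and 2 carried the difference. In E123 it had 3459, 3303, 1886 and 2074 CPM in dark dCre libraries and 2518, 1765 and 1192 CPM in dark Cre libraries, which overlap. Without the dark dCre libraries 1 and 2 of E1 and E123 no member passed, and the values were 0.45 (Pcdh8, adjusted p = 0.448), 0.61 (Pcdh20, adjusted p = 0.419) and -0.05 (Pcdh9, adjusted p = 1). With the length index as a covariate they were 0.18, 0.32 and 0.08, the last with its sign turned. Leaving out 1 library at a time, Pcdh8 lost its call without E123 dark Cre replicate 3 (0.61, adjusted p = 0.0576) or E1 dark dCre replicate 2 (0.53, 0.0503). Pcdh20 lost it without either of those, without E123 dark dCre replicate 1, E23 dark dCre replicate 1, E23 light Cre replicate 4, or E23 dark Cre replicate 2 or 3, with values of 0.75 to 0.87 and adjusted p up to 0.089. Pcdh9 lost it without any 1 of 31 of the 48 libraries (adjusted p up to 0.0977) and with total counts in place of TMM (-0.40, adjusted p = 0.0838).

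**Figure D5:**
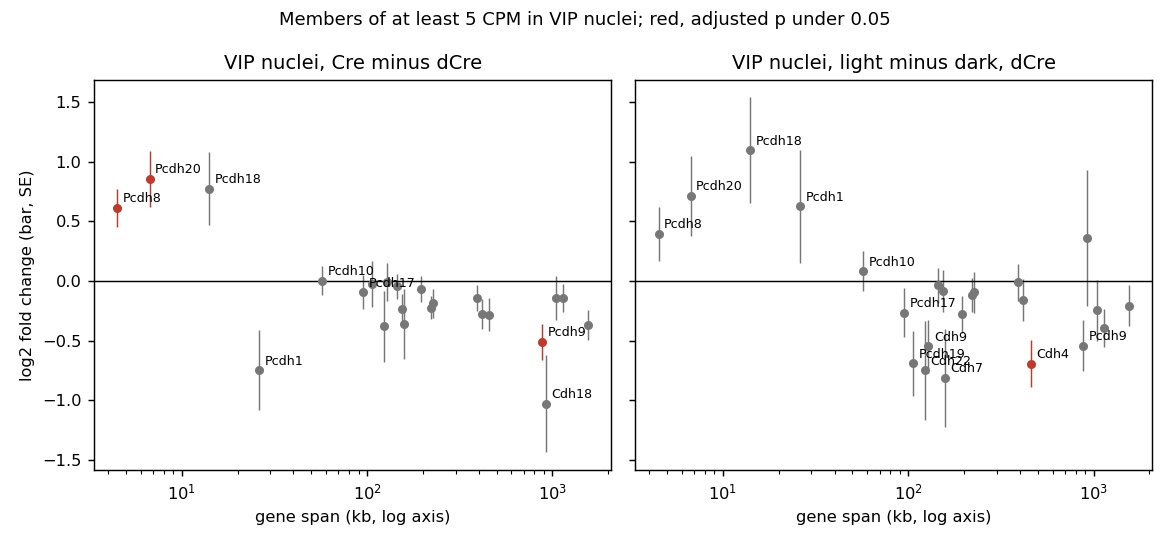
Log2 change with light (dCre mice) and with Cre in VIP nuclei against gene span (kb, log axis) for members of at least 5 CPM, with SE bars and called members in red. The short genes Pcdh8 (4.5 kb) and Pcdh20 (6.7 kb) lie above 0 with Cre and the 877 kb gene Pcdh9 below.

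The length index was lower with Cre in lines E1 and E123. In VIP nuclei it was 4.50 ± 1.05 (dCre) against 2.62 ± 0.323 (Cre) in dark E1, and 4.29 ± 0.712 against 3.38 ± 0.442 in dark E123. In light E123 it was 3.80 ± 0.228 against 2.99 ± 0.347, and in light E1 2.99 ± 0.390 against 2.75 ± 0.341. In E23 the means lay between 2.48 and 2.95 in all groups.

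By line, Cre lowered 3 members in E1 and none in E23 or E123 (1.57%, 0% and 0.0389% of all genes passed, those in E1 split into 0.928% higher and 0.646% lower). At an unadjusted p under 0.05 there were 11, 1 and 6 members, and DESeq2 called 1 in E23, again Cdh19, and 0 in E123. In E1 the 3 were Pcdh9 (-0.98 ± 0.255, adjusted p = 0.0405), Pcdh17 (-0.92 ± 0.243, adjusted p = 0.0422) and Pcdh15 (-0.76 ± 0.209, adjusted p = 0.0474). Pcdh17, a delta-2 protocadherin that gathers WAVE complex at axon contacts, had 92.0, 89.8 and 55.1 CPM in dark dCre and 33.5, 41.2, 40.8, 27.2 and 64.3 CPM in dark Cre libraries of E1. In the light it had 113, 128, 57.2, 48.7 and 71.3 CPM with dCre and 53.9, 33.7, 36.2 and 40.9 CPM with Cre. In each E1 comparison the groups overlapped in 1 Cre library. In E23 the direction was the other, at 0.73 ± 0.248 (adjusted p = 0.616), with 102.6, 38.9, 67.0 and 143 CPM in dark Cre and 54.0, 34.3, 49.2 and 61.6 CPM in dark dCre libraries. The Cre change of Pcdh17 differed between E1 and E23, by -1.64 ± 0.347 (adjusted p = 0.0381), the only member to do so (0.0486% of all genes, 0.0291% higher and 0.0194% lower). That call was lost with total counts in place of TMM (-1.34, adjusted p = 0.10), with the length index (-1.03, adjusted p = 0.708) and without the libraries of high index (-1.44, adjusted p = 0.398). It was also lost without any 1 of 22 of the 33 libraries of both lines (adjusted p up to 0.119; -1.77 to -1.46 over all 33). All 3 E1 calls were lost under the same 3 settings, and Pcdh9 turned to 0.20 with the index and 0.18 without those libraries. Of the 17 E1 libraries, leaving out any 1 of 9 ended the call of Pcdh9, any 1 of 10 that of Pcdh17 and any 1 of 12 that of Pcdh15, with adjusted p up to 0.177.

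In E123 the smallest p-values were those of Pcdh8 (0.93 ± 0.285, adjusted p = 0.109), Pcdh20 (1.33 ± 0.419, adjusted p = 0.121) and Cdh2 (-0.40 ± 0.177, adjusted p = 0.265), and in E23 those of Pcdh17, Pcdh1 and Cdh19. Pcdh20 passed in E123 without dark dCre replicate 4. Neither E1 against E123 nor E23 against E123 gave a member that passed (1 and 5 at an unadjusted p under 0.05, 0% of all genes in both, and 0 by DESeq2). Pcdh17 came nearest in the first (-0.83 ± 0.352, adjusted p = 0.997), before Cdh24 and Pcdh1, and Pcdh7 in the second (0.69 ± 0.303, adjusted p = 0.330), before Pcdh17 and Cdh4. In E1 against E23 the next were Pcdh7 (-0.85 ± 0.295) and Pcdh15 (-0.83 ± 0.297), with adjusted p of 0.171 and 0.182.

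In total nuclei, light in dCre mice lowered Cdh7, Cdh10 and Pcdh9 (3 of 28 tested, and 5.69% of all genes, 3.42% higher and 2.27% lower). Cdh7 fell by 0.87 ± 0.205 on the log2 scale (adjusted p = 0.00652), with 107, 95.9, 73.7 and 58.5 CPM in the dark and 49.4, 30.3, 19.3 and 59.9 CPM in the light in line E123. In E23 it had 76.8, 43.5, 54.3 and 122.9 CPM in the dark and 33.5, 14.5, 42.4 and 54.8 CPM in the light, and in E1 52.9 to 71.0 CPM in the dark and 29.5 to 70.9 CPM in the light. The groups overlapped in each line, though every line's mean was lower in the light. Cdh10 (-0.49 ± 0.121, adjusted p = 0.00901) had 263 to 426 CPM in the 3 dark and 181 to 267 CPM in the 5 light libraries of E1. Pcdh9 (-0.39 ± 0.112, adjusted p = 0.0282) had 3381 to 5772 and 2320 to 3275 CPM there, without overlap. Without the total libraries of dark dCre replicates 1 and 2 of E1 and E123 none passed, and Cdh7 was at -0.74 (adjusted p = 0.206), Cdh10 at -0.25 (0.574) and Pcdh9 at -0.12 (0.840). With the index as a covariate they were at -0.77, -0.21 and -0.03, and none passed. Cdh7 and Cdh10 passed with each of the 24 libraries left out in turn. Pcdh9 did not without dark dCre replicate 1 or 2 of E1, dark replicate 1 or light replicate 1 of E123, or dark replicate 2 of E23 (-0.39 to -0.33, adjusted p up to 0.101). Without dark dCre replicate 3 of E1 or 4 of E123, 6 members passed, Cdh2 and Cdh8 among them in both. The share of all genes called in these refits is not given here, so that count is not read as particular to the members.

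With Cre no member passed for light in total nuclei (4 at an unadjusted p under 0.05, 1.49% of all genes, and 0 by DESeq2; Cdh8 passed without E23 dark Cre replicate 3). The nearest were Cdh8 (-0.50 ± 0.166, adjusted p = 0.136), Cdh7 (-0.50 ± 0.205, adjusted p = 0.277) and Cdh10 (-0.28 ± 0.122, adjusted p = 0.329). Both viruses need Flp, which is made in VIP cells, and Vip averaged 44.6 CPM in total against 5359 CPM in VIP nuclei. A change confined to VIP cells could therefore hardly be seen in total nuclei. Cre itself changed no member in total nuclei (1 at an unadjusted p under 0.05, 0.0283% of all genes, and 0 by DESeq2). The smallest p-values there were those of Cdh6 (-0.26 ± 0.120, adjusted p = 0.425), Cdh12 (-0.18 ± 0.098, adjusted p = 0.499) and Cdh2 (-0.12 ± 0.086, adjusted p = 0.630). Pcdh8, the member with the largest fitted difference among those higher in VIP nuclei, remained between 1.78 and 32.2 CPM in total nuclei of all 12 conditions.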

How the data were processed

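The deposited table holds raw read counts per gene, checked to be whole numbers, for 96 libraries of nuclear RNA from 50 to 100 nuclei each, primed on poly(A) and amplified by 17 PCR cycles per the labels. Per the submitters' processing notes, cutadapt 1.18, STAR 2.5.3a, HOMER 4.9.1 and mm10 were used. The annotation release and strand setting are not given in the sources used here, and the chemistry marks no strand and no single molecules. Gene identifiers were matched to GENCODE (55154 of 55335, the rest holding 0.0225% of counts) for symbols, spans and exon lengths.

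Genes passing filterByExpr were tested in edgeR 4.0.16 (R 4.3.3) with TMM, robust quasi-likelihood and 1 coefficient per group. All 96 libraries (22926 genes) served VIP against total nuclei, and 48 VIP (20585) or 48 total libraries (21213) the other comparisons. The biological coefficient of variation was 0.771, 0.815 and 0.679. SE is the size of a log2 change over the root of its F statistic, and a change with an SE above 10, from groups at 0, was taken as not estimable. Levels are CPM on TMM sizes of the 96-library fit, and values per kb are divided by exon length. The code was tested on simulated counts. In 148 pairs of libraries within groups no duplicate was found. VIP and total libraries of the same number were not taken as paired in the tests.

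The members, the partner, superfamily and cell type lists and the tests were chosen with earlier results of these data known. Members past the threshold are named, and elsewhere the 3 smallest p. Of the partner and superfamily lists up to 4 genes a direction are named. Alternatives were other scaling, no filter, DESeq2 1.42.0, covariates, replicate blocks, and libraries left out. No library was excluded.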

Additional observations from a re-analysis of the deposited data

Results flagged for a closer look

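In VIP nuclei of line E123, dCre, after light, Cdh4 was at 103.5 CPM in replicate 4, far from the 212 to 224 CPM of the other 3 libraries. Chance alone sets a library apart in this way in about 1 in 20 checks, and 68 combinations of a member and a group were checked. They covered only members called for light or Cre. Groups of 3 libraries, dark dCre E1 and dark Cre E123, were not checked. The Cre change of Pcdh17 in VIP nuclei differed between lines E1 and E23, by -1.64 on the log2 scale (edgeR, adjusted p = 0.0381). As given above, that call was lost with total counts in place of TMM, with the length index and without the libraries of high index. It was also lost without any 1 of 22 of the 33 libraries of both lines.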

How the results depend on the processing

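The 9 higher and 8 lower members in VIP against total nuclei stayed within 1.5 times of these counts under each alternative. The light and Cre calls did not. With the length index as a covariate, and without the 4 pairs of VIP and total libraries of high length index, 0 members passed for light in dCre VIP nuclei (all lines and E1), for Cre (all lines and E1), for Cre between lines, and for light in dCre total nuclei. The latter setting leaves dark dCre E1 with 1 library per fraction, assumed to vary like the other groups. With these settings the number of all genes called fell from 1290 to 136 and 46 for light in dCre VIP nuclei, from 860 to 1 and 0 for it in E1, from 769 to 0 and 3 for Cre, from 324 to 0 and 0 for Cre in E1, and from 1207 to 411 and 157 for light in dCre total nuclei. Pcdh9 turned to 0.39 and 0.38 for light in dCre VIP nuclei, to 0.68 and 1.22 for it in E1, and to 0.20 and 0.18 for Cre in E1, and to 0.082 for Cre in all lines with the index. Cdh13 turned to 0.11 and 0.83 for light in E1, and Cdh2 to 0.0095 and 0.0084 for Cre in total nuclei. With the index, Cdh4 turned to -0.0499 for Cre in E23 against E123.

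With total counts in place of TMM, 0 members passed for light in dCre VIP nuclei, Cre in E1 and Cre between lines, and the all-gene medians rose from 0.012 to 0.129, from 0.06 to 0.233 and (E1 against E23) from 0.056 to 0.305. Over all genes 1172, 280 and (E1 against E23) 7 passed, against 1290, 324 and 10 with TMM. With no filter on low counts the members called were 5 for light in dCre VIP nuclei, 5 for it in E1, 1 for light with Cre, 6 for Cre, 6 for Cre in E1, 3 for Cre in E123, 2 for Cre between lines, 5 for light in dCre total nuclei and 1 with Cre there. Over all genes the calls rose too, in the same order to 1700, 1199 (from 860), 229 (from 72), 1443, 1195, 595 (from 8), 434 (E1 against E23, from 10), 1664 and 521 (from 316). DESeq2 called 2 for light in dCre VIP nuclei, 3 in E1, 1 in E23, 1 for Cre in E23 and, added after the data were seen, 1 for light in the VIP-to-total difference. Its calls over all genes were 1843, 1708, 70, 17 and 85 in the same order. They numbered 1091 for Cre in E1 and 1266 for Cre in all lines. For light in dCre E1, DESeq2 size factors in edgeR gave 2 members and sex as a covariate 0, with 923 and 772 of all genes called, against 860.

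Leaving out 1 library at a time gave 0 to 2 members for light in dCre VIP nuclei, 0 to 5 for it in E1, 0 to 4 for Cre, 0 to 6 for Cre in E1, 0 to 1 for Cre in E123, 0 to 4 for Cre between lines, 2 to 6 for light in dCre total nuclei and 0 to 1 for it with Cre. The highest of these counts in E1 and between lines came without E1 dark dCre replicate 3. The share of all genes called in these refits is not given here, so the counts are not read as particular to the members.

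The replicate numbers were not taken to pair the libraries, since the labels do not say what a number shares and not every pair correlated above 0.1. Deviations of the 48 same-numbered VIP and total libraries correlated at -0.0285 to 0.278 (median 0.0452), with 10 above 0.1, and 31 of 48 VIP libraries correlated best with the total library of their own number, where 12, 1 in each group, would do so by equal odds. All 48 such pairs match in sex. These are hints of a shared source from the data, not the design. With a block by line, virus, light and number, the VIP-to-total counts remained 9 and 8. The fits of VIP or total nuclei alone had a block by number only, shared across lines and groups, which pairs no fractions. With it, Cre in VIP nuclei gave 4 members, Pcdh15 being added, and 1146 of all genes against 769. Neither block changed another member count by over 1.5 times, and the block by number called 746 of all genes for Cre in E1. Pools of 50 to 100 nuclei limit what can be seen of members below a few CPM.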
